A study of Mus musculus with 5 samples.

Results

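DRACH sites on protein-coding genes whose main transcript has no intron were examined in direct RNA sequencing of mouse embryonic stem cells (mESCs). DRACH is the sequence context in which m6A is deposited on mRNA (D is any base but C, R is a purine, H is any base but G, and the A in the middle carries the methyl group). A site was taken if its position lay in a DRACH motif, on the strand of the call, of a gene whose RefSeq-linked APPRIS principal transcript (the main protein-coding isoform, mm10, GENCODE M21) has exactly 1 exon. The rule uses gene structure and sequence only. Ccdc85b, H2afj and Pop7 meet it but also have annotated transcripts with more than 1 exon. It gave 928 sites on 47 genes in the METTL3 inhibition dataset, of 38335 DRACH sites on 2465 genes and of 471848 deposited positions. In the Mettl5 dataset it gave 338 sites on 19 of the same genes, of 15249 DRACH sites and 195787 positions, and 328 sites were in both datasets. The annotation holds 2070 such single-exon genes among 20303, so only a small part of them had enough reads.

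In the METTL3 inhibition dataset, E14 mESCs received 30 μM STM2457, an inhibitor of the methyltransferase METTL3, for 48 h, or 0.025% v/v DMSO, the solvent. Both libraries came from one modified line that carries the reporters 2C::3xtbGFP-PEST and Zscan4::mCherry-PEST, a Dox::APOBEC1-YTH-HA-IRES-tdiRFP construct that was not induced, and a homozygous FKBP12 F36V knock-in at Mettl3 that was not induced. The Mettl5 dataset held a WT line and 2 Mettl5-KO clones, all untreated, with 1 library each. The labels give genotype WT to DMSO, STM2457 and WT, and 1 batch to each dataset. With 1 library per condition, and 1 WT library for both clones, the tests compare libraries and not conditions.

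m6A is written co-transcriptionally by the METTL3-METTL14 complex and is typically found in long internal exons and around stop codons. Exon junction complexes, deposited on mRNA upstream of each junction during splicing, keep the methyltransferase away from neighbouring sequence, so m6A is usually rare close to junctions. A transcript without introns carries no such complexes, and single-exon genes are therefore known as densely methylated mRNAs. METTL5 is the methyltransferase of 18S ribosomal RNA.

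The following sites carry the main results and are shown as 21 bases of the GENCODE M21 transcript, 5′ to 3′, with the DRACH motif in capitals. The first 5 were among the most methylated deeply covered sites, and the next 2 were the deeply covered sites that STM2457 lowered least. The last 2 lie on genes grouped below as intronless copies of spliced genes. Rpl10l, among the first 5, also aligns to a spliced gene, Rpl10, at 84.3% identity, just under the limit for that group.
Jund, chr8:70700136, plus strand, 3′ UTR: ggcgccccGGACTctttcgag
Ier2, chr8:84661903, minus strand, 3′ UTR: ctattaaaGGACTgtcccttc
Epop, chr11:97628839, minus strand, CDS: cgtcctcaGGACTctccgacc
Exosc6, chr8:111057482, plus strand, 3′ UTR: taggagatGGACCcagtgcag
Rpl10l, chr12:66283710, minus strand, 3′ UTR: attcctgaGGACTttgctggc
Hnrnpa0, chr13:58127211, minus strand, 3′ UTR: tcattgatGGACTctattttt
Pcbp1, chr6:86525067, minus strand, CDS: ccacccatGAACTcaccattc
Gm4737, chr16:46153616, minus strand, 3′ UTR: agtagcctGGACAgtgcttct
Csl, chr10:99757817, minus strand, CDS: aagtttgtGAACTctgagtca

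The level of a site is the percent of its valid calls that were m6A. The sites had a median of 64.5 valid calls in DMSO and 57 in STM2457, close to the 64 and 51 of all DRACH sites. In the 5 libraries, 8.31% to 9.15% of the calls failed the confidence filter. No position on Mettl5 itself was in the files, so its own transcript gave no check of the knockout. Sox2, a defining transcription factor of embryonic stem cells, was covered in all 5 libraries. All intervals are exact binomial at 95%. They include no error beyond that of counting, and they treat sites of one gene as separate although these share reads.

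A larger share of the DRACH sites was methylated on single-exon genes than on multi-exon genes. A site was called methylated if more than 25 valid calls covered it in both libraries and its DMSO level was 25% or more. This held for 288 of 906 covered sites, or 31.8% (28.8% to 34.9%), on 41 of the 47 genes. On multi-exon genes it held for 4994 sites, or 13.9% (13.5% to 14.2%). The median DMSO level was 5.67% on single-exon genes and 1.35% on multi-exon genes. Of the methylated sites on single-exon genes, 135 were at 75% or more and 73 at 90% or more, while 233 of the 928 sites had no m6A call in DMSO. The threshold split a continuous range. The 5 sites just above it had 25% to 25.8% and the 5 just below it 23.3% to 24.8%.

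Of the 47 genes, 7 must be read apart, and are called retrocopies here. They are Acot10, Csl, Gm16381, Gm4737, Prdx6b, Psme2b and Uchl4, whose transcripts aligned to a spliced gene at 85% identity or more over at least 45% of their length. This grouping was chosen after the levels had been seen. Of their 155 covered sites, 4 were methylated, or 2.58% (0.708% to 6.48%). Without them, 284 of 751 sites were methylated, or 37.8% (34.3% to 41.4%), on 38 of 40 genes, and the median DMSO level was 9.84%.

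The excess depended on what it was set against. Sites of multi-exon genes were split by their distance in the transcript to the nearest exon junction. In coding sequence, 1.71% of the sites within 100 bases of a junction were methylated, 19.9% of those between 100 and 200 bases away and 33.2% (31.4% to 35.1%) of those further away. All single-exon genes together had 26.7% (22.9% to 30.8%) in coding sequence, below the sites far from junctions. Without the retrocopies, a group made after the levels were seen, the value was 35.3% (30.5% to 40.3%), an interval that contains that of the sites far from junctions. In the 3′ UTR, all single-exon genes had 40.9% (35.8% to 46.0%) and those without retrocopies 43.3% (38.0% to 48.7%), against 18.0% (17.4% to 18.6%) for multi-exon sites over 200 bases from a junction. In the 5′ UTR, 2 of 32 sites of all single-exon genes were methylated, 1 each on Epop and Pcbp1, or 6.25%. Without retrocopies it was 2 of 30, or 6.67%, with a wide interval (0.818% to 22.1%). That interval contains the 17.9% of the multi-exon sites far from junctions. Shares were also counted by gene, among genes with at least 5 covered sites, again without retrocopies and with multi-exon sites over 200 bases from a junction. The median coding share was 34.5% over 30 single-exon genes and 33.3% over 166 multi-exon genes. Of the 7 retrocopies, left out here, 6 had no methylated coding site. The median 3′ UTR share was 44.4% over 25 single-exon genes and 16.7% over 1147 multi-exon genes. In the 3′ UTR, 0 of the 25 had no methylated site, against 261 of the 1147 and 1 of 2 retrocopies. These shares are descriptions and were not tested, since the sites of a gene share reads.

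**Figure D1:**
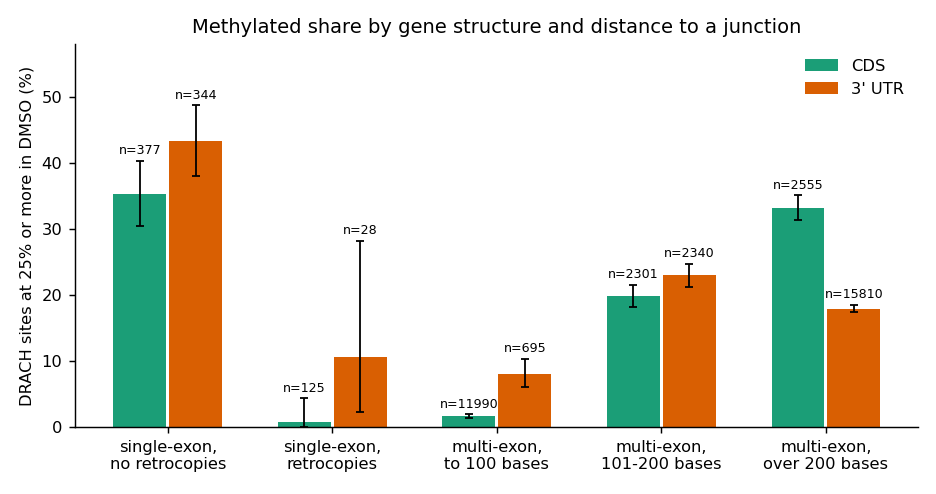
Bars give the percent of covered DRACH sites at 25% or more in DMSO in coding sequence (green) and 3′ UTR (orange), for single-exon genes without retrocopies, for the retrocopies alone and for multi-exon genes by distance to the nearest junction. Error bars are exact binomial 95% intervals and n is the number of sites. Without the retrocopies, which were grouped after the levels were seen, coding sites of single-exon genes are at 35.3% (26.7% with them) and multi-exon coding sites over 200 bases from a junction at 33.2%, while the 3′ UTR sites are at 43.3% and 18.0%.

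The comparison depended on the distance from the stop codon, also within coding sequence. In the 200 coding bases before the stop codon, 52.8% (42.9% to 62.6%) of the sites of single-exon genes without retrocopies were methylated, and in the 200 bases after it 56.0% (46.8% to 64.9%). The multi-exon sites far from junctions had 37.0% (33.9% to 40.2%) and 29.8% in the same windows. Between 200 and 400 bases into the 3′ UTR the values were 48.4% and 19.2%, and beyond 400 bases 27.0% and 11.1%. Between 200 and 400 bases before the stop codon they were 39.5% and 35.0%, and between 400 and 800 bases before it 23.4% and 25.9%. More than 800 bases before it, single-exon genes without retrocopies had 23.0% (13.2% to 35.5%) and the multi-exon sites 32.8% (29.2% to 36.5%), with intervals that overlap. Shares with the retrocopies, grouped after the levels were seen, were not computed by window. Of their 125 coding sites, 1 was methylated. Of these windows, the 2 next to the stop codon had the highest shares on single-exon genes.

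The levels also differed by motif. GGACT, the classical m6A motif, was methylated at 83 of 100 covered sites, with a median DMSO level of 83.8%. The share was 59.7% for the GAACT motif, 53.9% for the GGACA motif and 51.2% for GGACC. Without retrocopies these were close together, at 67.3% for GAACT, at 67.8% for the GGACA motif and at 59.5% for GGACC, below 90.2% for GGACT. Over all DRACH sites the shares were 55.3% for GGACT, 35.4% for GAACT, 31.7% for GGACA and 19.0% for GGACC. At multi-exon sites over 200 bases from a junction they were 73.3%, 50.4%, 49.8% and 33.8%, in the same order. Both sets ranked these motifs as all single-exon genes did, so the ranking was not particular to single-exon genes. At the other end, 0 of 53 TGACC, 1 of 55 AAACC and 1 of 47 AAACA sites were methylated. Over all DRACH sites the shares of those motifs were 0.700%, 0.349% and 0.673%. Within coding sequence, GGACT was methylated at 36 of 39 sites of single-exon genes without retrocopies, or 92.3% (79.1% to 98.4%). At multi-exon coding sites over 200 bases from a junction it was 90.2%, and within 100 bases of one 11.2% (8.97% to 13.7%). Of the 8 coding GGACT sites of retrocopies, 0 were methylated. In the 3′ UTR, GGACT was methylated at 46 of 50 sites of single-exon genes, or 92.0%, against 70.5% at multi-exon sites far from junctions.

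The genes were grouped by role. The role groups, which hold no retrocopies, had 33.3% to 39.3% of their sites methylated. This is near the 37.8% (34.3% to 41.4%) of all single-exon genes without retrocopies. Genes of transcription and chromatin formed the largest group, with 112 of 285 covered sites methylated, or 39.3%, on 15 genes. Epop, a partner of Polycomb repressive complex 2 in embryonic stem cells, had 18 methylated sites, the most of any gene, 10 in the 3′ UTR, 7 in the coding sequence and 1 in the 5′ UTR. Its levels summed to 13.4 in DMSO and 4.60 in STM2457. This sum is the mean number of m6A per molecule at the measured sites, if each site is read on comparable molecules. Ier2, an immediate early gene, had 13 methylated sites, 10 of them in the 3′ UTR. Its GGACT 183 bases after the stop codon was at 98.8% in DMSO and 53.8% in STM2457.

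Thap11, a transcription factor of pluripotent cells, had 12 methylated sites, all in the 3′ UTR. Ier5l, a relative of immediate early genes, had 12, of which 10 were coding, at a median of only 28 valid calls in DMSO. Jund, a subunit of the AP-1 transcription factor, had 7, and the GGACT 53 bases after its stop codon was at 99.5% (97.1% to 100%) in DMSO and 44.4% (37.0% to 52.0%) in STM2457. Sox2 had 10 methylated sites, and 4 of them were above 95%. The GAACT 15 bases after its stop codon was called m6A in all 42 valid calls in DMSO and at 59.4% in STM2457. The sites nearest to 100% on these genes were still well above 0 after treatment.

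The histone genes among them differed in level. H2afx, the histone variant of the DNA damage response, had 6 methylated sites, all in the 3′ UTR, with up to 94.9% in DMSO and 52.7% in STM2457 at the same GGACT. H1f0, a replication-independent linker histone, had 4 methylated sites of 25 covered, with a highest level of 77.6%. H1fx, another linker histone, had 1 of 6, at 35.3% in DMSO and 1.85% in STM2457. H2afj, a further H2A variant that also has transcripts with more than 1 exon, had none of 4, and its highest level was 5.94%. Of the other genes of the group, Eid2 had 8 methylated sites of 19 and Eid1 6 of 20, both related inhibitors of differentiation. Ccdc85b, a transcriptional corepressor, had 7 of 12, Cenpb, which binds centromeric DNA, 6 of 17, and Riox1, a histone demethylase, 2 of 4.

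Genes of ribosome assembly and RNA processing had 83 methylated sites of 211 covered, or 39.3%, on 9 genes. Ddx28, a helicase of mitochondrial ribosome assembly, had 16 methylated sites, of which 14 were coding, at a median of 32 valid calls. Exosc6, a subunit of the RNA exosome, had 13 methylated sites of 22, and its GGACC 290 bases after the stop codon was at 98.4% in DMSO and 36.4% in STM2457. All sites of Exosc6 also lie in an annotated transcript of Aars on the same strand, so its reads cannot be assigned to one of them with certainty. Rrs1, a ribosome biogenesis factor, had 10 methylated sites. Rpp25, a protein of RNase P and RNase MRP, had 10, whose levels summed with its other sites to 6.36 in DMSO and 1.04 in STM2457. Imp3, a protein of the U3 small nucleolar ribonucleoprotein, had 9. Utp3, another processome protein, had 8, all in coding sequence. Pop7, which like Rpp25 belongs to RNase P, had 7 of 13, Kti12 7 of 26 and Znhit2 3 of 5.

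The RNA-binding and splicing genes had 23 methylated sites of 69 covered, or 33.3%. Pcbp1, a poly(C)-binding protein, was the most deeply covered of the 47 genes, with a median of 775 valid calls in DMSO. It had 5 methylated coding sites and 1 in the 5′ UTR, and none in the 3′ UTR. Hnrnpa0, a heterogeneous nuclear ribonucleoprotein, had 9 methylated sites, of which 3 were coding and 6 in the 3′ UTR. Sf3b5, a subunit of the splicing factor SF3b, had 3 of 12, and Rbmxl2, a testis relative of Rbmx, 5 of 15.

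The remaining genes, of signalling, metabolism and other functions, had 66 methylated sites of 186 covered, or 35.5%, on 12 genes. Sephs2, which makes selenophosphate for selenoproteins, had 15 methylated sites, 7 coding and 8 in the 3′ UTR, and the second highest sum of levels, 11.7 in DMSO and 3.89 in STM2457. Sfn, the 14-3-3 protein sigma, had 9. Tbcc, a tubulin folding cofactor, had 8, all in coding sequence. Mcts2, an imprinted gene, had 3 of 11. Rtl8b, of a retrotransposon-derived family, had 9 of 19, and Nsmce3, a subunit of the SMC5/6 complex, 8 of 23. Rraga, a GTPase of amino acid sensing, had 4 of 16, all in coding sequence. Cldn4, a tight junction protein, had 2 of 4, and 0610012G03Rik 5 of 12. 1700029P11Rik and Fbxl14 had 1 site each. That of Fbxl14 was methylated, at 30.8%, and that of 1700029P11Rik did not exceed 25 valid calls in both libraries.

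Among the gene lists that were written for intronless genes, most members had no covered site. The AP-1, C/EBP and immediate early list had 3 of 11 genes covered, with 32 of 65 sites methylated. Of the SOX, POU, FOX and other developmental factors 1 of 22 was covered, Sox2. The RNA-binding list had 2 of 10 genes with 15 of 42 sites methylated, the histone and chromatin list 4 of 16 genes with 11 of 48, and the imprinted list 1 of 7 genes with 3 of 11. Beside these counts, 31.8% of the covered sites of all single-exon genes and 37.8% of those without retrocopies were methylated. None of the 8 heat shock genes and none of the 22 signalling genes had a covered site. In the annotation used, 4 of the 10 RNA-binding genes and 10 of the 22 signalling genes have a single-exon principal transcript.

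**Figure D2:**
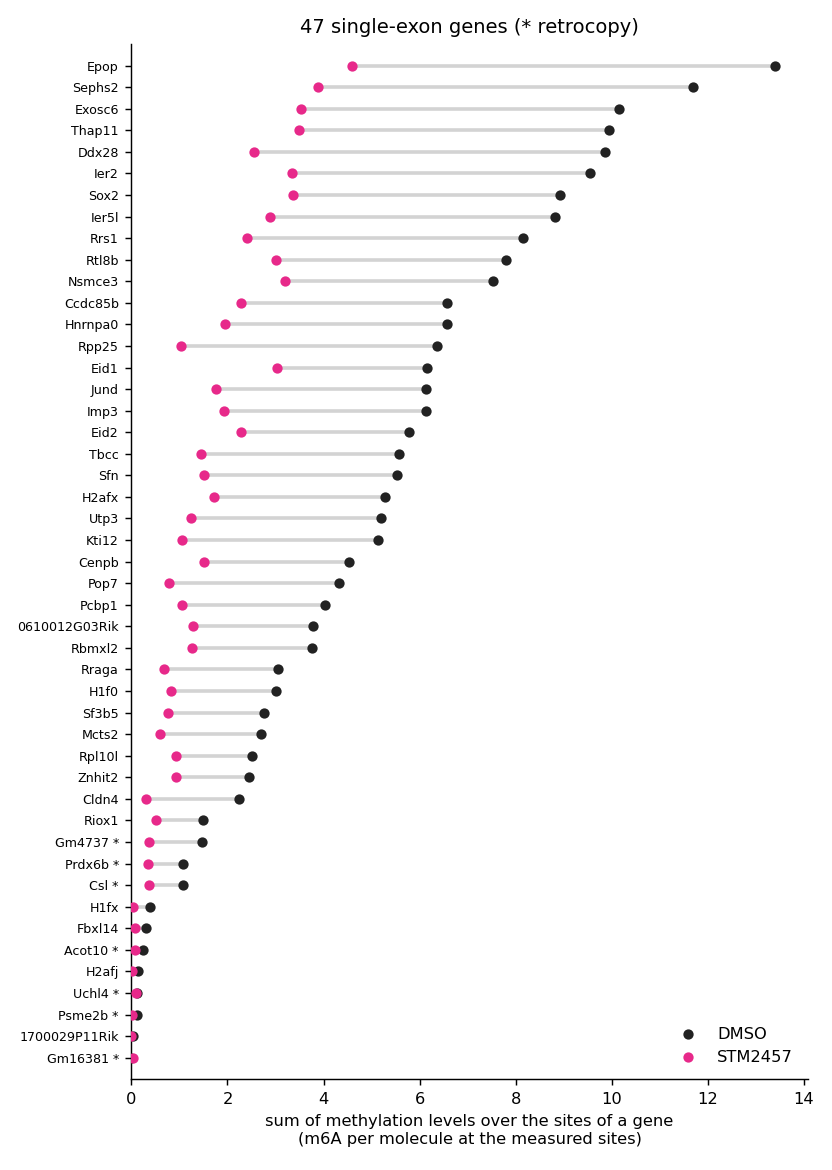
Each row is a gene, and the horizontal axis gives the sum of the methylation levels (as fractions) over its covered DRACH sites in DMSO (black) and STM2457 (pink). Asterisks mark retrocopies. Epop has the highest sum (13.4 in DMSO, 4.60 in STM2457), and the retrocopies are in the lower part of the order.

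STM2457 lowered the level at most methylated sites. Two-sided Fisher's exact tests of m6A against the other valid calls, after Benjamini-Hochberg adjustment over all DRACH sites, called a lower level (adjusted p under 0.05) at 346 of the 928 sites, or 37.3%. Over all 38335 DRACH sites the share was 19.2%. Among methylated sites the shares were 94.1% on single-exon genes and 93.2% over all. A higher level was called at 0 of the 928 sites and at 0.00261% of all. It was higher without a call at 55 sites, of which 0 had an unadjusted p under 0.05, and the chi-square test also called 0. By gene list, the test called 40 of 66 sites lower for the AP-1, C/EBP and immediate early list and 11 of 30 for Sox2. It called 25 of 43 for the RNA-binding list, 15 of 51 for histones and chromatin, and 4 of 11 for Mcts2.

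The 288 methylated sites averaged 66.3% in DMSO and 22.3% in STM2457. Their relative decrease, which is the fall as a share of the level in DMSO, averaged 71.3% ± 19.1 (SD over sites), with a median of 74.6%. Multi-exon genes had a mean of 77.8% ± 16.1. After STM2457, 95 of the 288 sites, or 33.0%, were still at 25% or more, against 932 of 4994 on multi-exon genes. The decrease was 75.4% in coding sequence and 67.5% in the 3′ UTR.

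The relative decrease followed the DMSO level in both kinds of gene. Without retrocopies, it was 84.5% ± 10.1 at the 91 sites of 25% to 50% in DMSO, 80.2% ± 9.91 at 60 sites of 50% to 75%, 69.7% ± 9.78 at 61 sites of 75% to 90%, and 48.3% ± 18.4 at 72 sites of 90% or more. Multi-exon sites over 200 bases from a junction had 84.5%, 80.7%, 71.4% and 50.8% in the same 4 ranges. Of the 72 sites of 90% or more, 68 were still at 25% or more after STM2457, and of the 91 sites of 25% to 50%, 0 were.

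**Figure D3:**
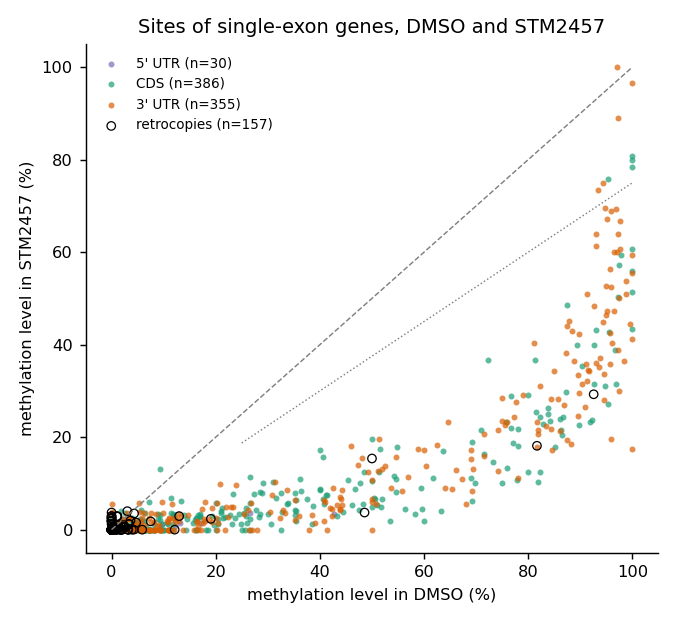
Each point is a DRACH site of a single-exon gene, with its level in DMSO (horizontal, %) and in STM2457 (vertical, %), coloured by transcript region. Open circles are retrocopies, the dashed line marks equal levels and the dotted line a relative decrease of 25%. Points bend upwards at the right, where 72 sites of 90% or more in DMSO had a mean of 49.7% in STM2457.

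By gene, the summed level of the 37 genes with at least 5 sites that were not retrocopies had a median of 5.57 in DMSO, from 0.380 to 13.4, and of 1.51 in STM2457, from 0.0391 to 4.60. It was lower in STM2457 for all 37, by 50.8% to 89.7% with a median of 67.4%. Eid1, an inhibitor of the acetyltransferase EP300, had the smallest decrease, and H1fx the largest. The read depth in STM2457 relative to DMSO had a median of 0.893 over the 44 genes with at least 5 sites, and 0.814 over all 2166 such genes. Rbmxl2, H2afx and Gm4737 had low ratios of 0.246, 0.350 and 0.490, and Cldn4 and Pop7 high ones of 2.22 and 2.13. These ratios are those of 2 libraries and were not tested, and in bulk RNA fewer expressing cells and less RNA per cell cannot be told apart.

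At 9 methylated sites the loss was under 25% of the DMSO level, and these were counted as not responsive to STM2457. They were 9 of 288, or 3.12%, against 1.30% on multi-exon genes, and all 9 were at 90% or more in DMSO, where 56 of the 60 such sites of multi-exon genes far from junctions also lay. Within that range they were 9 of the 72 sites of single-exon genes without retrocopies and 56 of the 543 multi-exon sites far from junctions. The motif was GGACT at 6 of them, GAACT at 2 and AGACT at 1. The deepest was the GAACT of Pcbp1, 222 bases before the stop codon, at 95.2% (93.4% to 96.7%) of 735 valid calls in DMSO and 75.9% (72.1% to 79.4%) of 551 in STM2457. Another motif of Pcbp1, the TAACT 17 bases further on, was at 69.1% of 680 valid calls in DMSO and 6.29% of 572 in STM2457.

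The GGACT of Hnrnpa0 185 bases after the stop codon was at 97.3% (93.2% to 99.3%) in DMSO and 89.0% (82.2% to 93.8%) in STM2457, with an adjusted p of 0.036 by Fisher's exact test. The neighbouring GGACT at 140 bases started at 97.1% and ended at 38.8%. Sephs2 had a GGACT at 100% of 119 valid calls in DMSO and 78.3% of 83 in STM2457. Sites of Ccdc85b (100% and 96.7%), Eid1 (97.0% and 100%), Nsmce3 (100% and 80%, and 93.3% and 73.3%), Znhit2 (100% and 80.8%) and Rrs1 (94.3% and 75%) completed the set, at 26 to 60 valid calls in each library. Fisher's exact test still called a lower level at 5 of the 9 sites. Just beyond the rule, the Thap11 GGACT 315 bases after the stop codon fell by 26.4% of its level, and sites of Imp3, Ier2, Sephs2 and Epop with at least 50 valid calls fell by 29.4% to 34%.

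**Figure D4:**
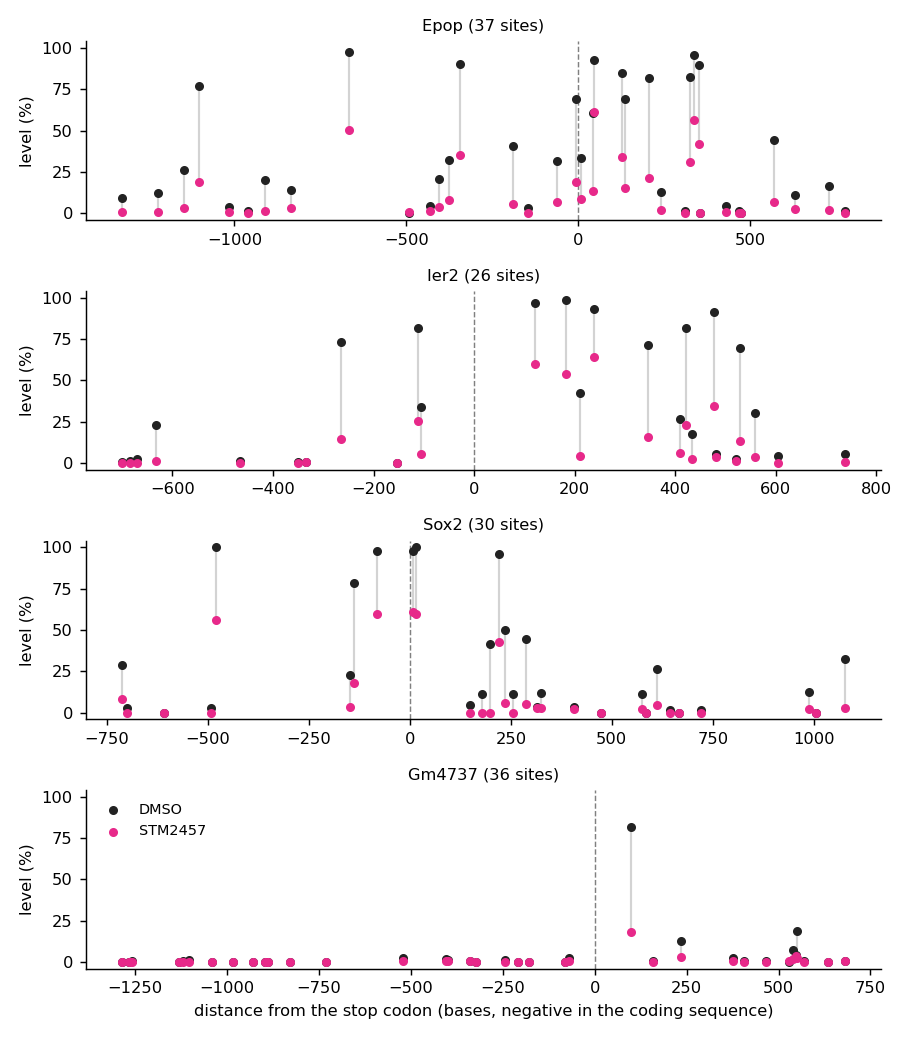
Levels of all covered DRACH sites of Epop, Ier2, Sox2 and the retrocopy Gm4737 by distance from the stop codon (bases, dashed line at 0), in DMSO (black) and STM2457 (pink). Methylated sites of the first 3 genes lie on both sides of the stop codon, while Gm4737 has 1 site at 25% or more among 36.

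The retrocopies had levels near 0 at nearly all sites. Acot10, Gm16381, Psme2b and Uchl4 had no methylated site among 31, 9, 10 and 25, and they were the only genes with at least 5 sites and none methylated. Gm4737, an intronless copy of Ahcy, the gene of S-adenosylhomocysteine hydrolase, was at 99.7% identity with it over 99.7% of its length. It had a median of 711 valid calls in DMSO, and of its 36 sites 1 was methylated, the GGACA 98 bases after the stop codon, at 81.7% (78.7% to 84.4%) in DMSO and 18.1% in STM2457. Csl, a copy of the citrate synthase gene Cs, had 1 of 29, the GAACT 16 bases before the stop codon. Prdx6b, a copy of the peroxiredoxin gene Prdx6, had 2 of 15 covered sites.

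The sites of the copies were placed on the spliced gene by alignment. All 157 retrocopy sites aligned, and 128 of them fell within 100 bases of a junction of the spliced gene, of which 0 were methylated. Of the other 29, 4 were. At 12 sites both the copy and the spliced gene were measured, on 3 genes, and the levels differed by a median of 0.172 and at most 12.7 percentage points. Most of the 12 were at or near 0 in both, so the small median describes unmethylated sites. The methylated site of Csl was at 92.6% in DMSO and 29.3% in STM2457, and the aligned site of Cs, where the motif is GGACT, at 96.2% and 30%. The 2 methylated sites of Prdx6b were at 48.6% and 50% in DMSO, and those of Prdx6 at 35.9% and 50.3%.

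For Acot9, Ahcy, Psme2 and Uchl3, the spliced genes of Acot10, Gm4737, Psme2b and Uchl4, 0 positions were in the files, while the copies had 405, 494, 219 and 274. At 99.5% to 100% of these positions the copy lay in the part that aligned to the spliced gene. That part made up 96.8%, 99.7%, 94.9% and 72.5% of the 4 copies, in the same order, so most positions would lie in it in any case. Whether reads on the copies came from the spliced genes was not tested, since it needs the reads. The boundary of the group is not sharp. Mcts2, Rpl10l and Rraga align to the spliced genes Mcts1, Rpl10 and Rragb at 83.8%, 84.3% and 82.9% identity, and had 9 of 41 sites methylated together, or 22%.

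Near-identical copies of any kind, at 95% identity or more over at least 50% of the transcript, were found for 8 genes. These were Acot10, Gm16381, Gm4737, Psme2b and Uchl4 from above, Imp3 (4933427G23Rik, a pseudogene), Rpl10l (Gm14460, a pseudogene) and Rtl8b (Rtl8a, a neighbouring gene of the same family). Imp3 and Rtl8b had 9 methylated sites each, with up to 95.2% and 100%, and Rpl10l, a ribosomal protein L10 paralogue, had 2 of 14, with up to 98.7%. Without all 8 genes the share of methylated sites was 35.8% (32.4% to 39.4%). Rrs1 stayed outside the group with 94.9% identity to the pseudogene Gm21168 over 53.5%.

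In the Mettl5 dataset, the average level over the sites of single-exon genes was similar in WT and in both Mettl5-KO clones. WT averaged 21.8% over the 338 sites, clone 1 22% and clone 2 21.8%, and the median difference from WT was 0 percentage points for each clone. Of 324 sites with more than 25 valid calls in all 3 libraries, 91 were at 25% or more in WT, 89 in clone 1 and 95 in clone 2, and 81 in all 3. Those 91 sites averaged 67.1% in WT itself, 65.9% in clone 1 and 64.8% in clone 2. The absolute difference had a median of 2.13 percentage points between clone 1 and WT, 1.99 between clone 2 and WT, and 2.0 between the clones, where the median WT level of the 338 sites was only 3.92%. The largest differences at these 324 sites were 23.6, 24.5 and 36.1 percentage points, in the same order.

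Fisher's exact test with Benjamini-Hochberg adjustment called 0 of the 338 sites in both clones, and the share over all 15249 DRACH sites was 0%. It also called 0 in either clone alone. At an unadjusted p under 0.05 there were 8 of the 338 sites in each clone and 3 in both in the same direction. Over all 15249 DRACH sites there were 176 in clone 1, 234 in clone 2 and 48 in both, which are smaller shares. The 2 sets differ in level, with a mean of 21.8% in WT for the 338 sites and 6.80% for all 15249. Sites near 0 can rarely reach such a p. Both clones were compared with the same WT library, so a call in both is not independent evidence. The difference in shares was not tested. The GAACT of Sf3b5 at chr10:13008879 was at 31.9% of 72 valid calls in WT, but at 10.9% and 12.9% in clones 1 and 2, and at 16.9% in DMSO. The AAACT of Hnrnpa0 at chr13:58126557 was at 33.3% of 39 valid calls in WT, with 10% and 12.5% in the clones. The AGACT of Gm4737 at chr16:46153163 was at 12.6% in WT, with 23.5% and 27.4% in the clones, and at 19.1% of 745 valid calls in DMSO. These 3 were chosen after their values were seen, and all had an adjusted p of 1 in both clones by Fisher's exact test. The chi-square test with continuity correction also called 0 sites in both clones.

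Gene means over sites were close in the 3 libraries. They were 30.5% in WT, 29.5% in clone 1 and 30.1% in clone 2 for Sox2, 33.7%, 35.9% and 34.8% for Epop, and 23.4%, 24.8% and 22.6% for Sephs2. Ier2 had 51.5%, 51.2% and 46.5% over 16 sites, with clone 2 the lowest. The retrocopies Gm4737, Prdx6b, Psme2b and Uchl4 were below 5% in each of the 3 libraries.

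**Figure D5:**
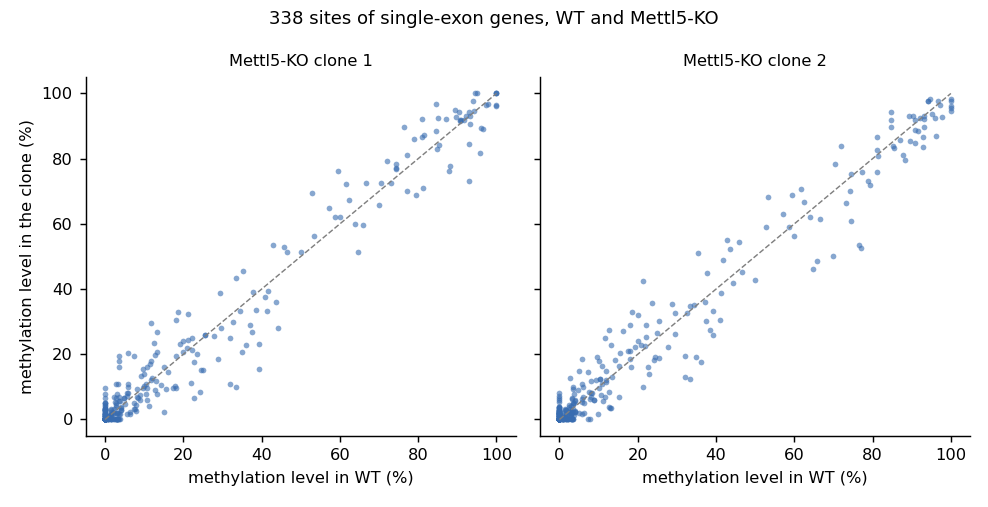
Levels of the 338 DRACH sites of single-exon genes in WT (horizontal, %) and in Mettl5-KO clone 1 (left) and clone 2 (right, vertical, %). Points scatter around the dashed line of equal levels, with a median absolute difference from WT of 2.13 and 1.99 percentage points at the 324 sites with more than 25 valid calls in all 3 libraries.

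The pattern over sites was shared by the control libraries of both datasets. Over the 328 common sites, DMSO had a mean of 24.1%, WT 22.3%, clone 1 22.5% and clone 2 22.3%, against 7.68% in STM2457. DMSO and WT levels were correlated across these sites (Pearson's r 0.987, Spearman's rho 0.912), which share reads and motifs and are no replicates. Of the sites, 91 were at 25% or more in both, 14 in DMSO only and 2 in WT only. The Jund GGACT was at 99.5% in DMSO, 96.7% in WT, 89.2% in clone 1 and 97.6% in clone 2, and the Pcbp1 GAACT at 95.2%, 93.3%, 93.1% and 93.2%. The Gm4737 GGACA was at 81.7% in DMSO and lower, at 61.6%, in WT, with 72.3% and 70.6% in the clones. DMSO and WT differ in cell line, treatment and batch, which cannot be told apart.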

How the data were processed

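Direct RNA sequencing (SQK-RNA004) of 5 mESC libraries was analysed. The authors used WarpDemuX for demultiplexing, dorado for basecalling, m6A calling and alignment to mm10, and modkit pileup for the summary by position. The deposited files give, per position and strand, the count of valid, m6A, unmodified, failed and other calls, without normalization, and the percent of m6A among valid calls. Every position has at least 25 valid calls in each library of its dataset. Sequencing starts at the poly(A) tail, so depth falls towards the 5′ end, and reads of near-identical genes may be placed on either.

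From these counts, levels were computed on DRACH positions of RefSeq-linked APPRIS principal transcripts (GENCODE M21), whose sequence had an A at 99.9% of positions in both datasets. For each site, 2 libraries were compared by a two-sided Fisher's exact test, and p-values were adjusted by Benjamini-Hochberg over all 38335 or 15249 DRACH sites (Python 3.11.15, scipy 1.17.1, pandas 2.3.3, numpy 2.4.6). The code was checked on simulated binomial counts, which hold no variation between libraries beyond counting and so do not test for it. Copies were found with blastn 2.17.0. Groups came from the labels, and the named-gene lists and members were chosen with earlier results of these data known. Role groups and the retrocopy group were made after the levels were seen. Named were the 12 genes with the most methylated sites, the 10 highest sites with at least 100 valid calls, the 8 methylated sites with the smallest decrease at 50 or more valid calls, genes with at least 5 sites and none methylated, members of the lists, genes with near-identical copies, and any site called in both clones, of which there was none. Other genes were named afterwards to complete a group. The alternatives were coverage, threshold, failed calls, gene definition, copies, test, adjustment and each clone left out.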

Additional observations from a re-analysis of the deposited data

How the results depend on the processing

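Of the alternatives to the 11 values compared, 56 stayed within the counting interval, the spread between clones or 1.5 times the count, and 19 did not. With at least 50 valid calls, 220 sites were called lower in STM2457, 3 were not responsive and 22 genes had a methylated site, on fewer sites. With a threshold of 10%, the methylated share was 42.2% (coding 35.5%, 3′ UTR 53.5%) and the mean relative decrease 75%. A limit of 50% in place of 25% gave 38 not responsive sites. Leaving out near-identical copies gave a share of 35.8% and a median DMSO level of 8.23%. Chosen after seeing the data, leaving out retrocopies gave 37.8% (coding 35.3%) and 9.84%, leaving out retrocopies, near-identical copies and Exosc6 37.0% and 9.42%, and leaving out all copies of spliced genes at 80% identity or more 38.7% and 10.3%. The mean level in the clones minus WT, 0.0661 percentage points, was -0.267 without near-identical copies and -0.0765 without retrocopies, and from -0.0151 to 0.147 with either clone left out. The call of 0 sites in both clones held under each alternative run, including a single clone. No paired analysis was possible because only one group has more than 1 library. At the minimum of 25 valid calls, counting error alone is wide.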

Other observations

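The spacing of methylated sites was described for single-exon genes without retrocopies. The distance between neighbouring methylated sites of a gene had a median of 60.5 bases over 246 gaps, and 19 gaps were of at most 10 bases. For multi-exon sites over 200 bases from a junction the median was 76 bases over 2500 gaps, with 173 of at most 10. Methylated sites lay a median of 606 bases from the annotated transcript end on single-exon genes and 635 bases from it on the multi-exon genes.

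Of the 346 sites of single-exon genes called lower in STM2457, 75 did not meet the limits for methylated sites in DMSO.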
